A study of Mus musculus with 6 samples.

Results

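Keratins 8 and 18 were examined in mouse tibialis anterior (TA) muscle together with the other intermediate filament genes of muscle, desmin (*Des*), vimentin (*Vim*), nestin (*Nes*) and synemin (*Synm*), and with plectin (*Plec*), which links these filaments to other structures. The 7 genes were found by symbol among the 41709 genes of the expression table, and all 7 were among the 11611 genes with a mean of at least 1 TPM that were tested. TPM is the abundance of a gene's transcripts, corrected for their length, on a scale with the same total in every library. *Krt8* and *Krt18* were chosen by their fold change between these same groups, so their values are a description without a test. The other 5 genes were included for their role, but with earlier results of these data known.

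The libraries were made from TA muscles of male C57BL/6J mice, collected 14 days after electroporation of a plasmid (pCMV6, with a CMV promoter) for Flag-tagged mouse Lrpprc. The control group, LrpprcWT (3 muscles), received the wild-type protein, an RNA-binding protein needed for mitochondrial transcripts. The other group, LrpprcP27A (3 muscles), received a variant in which a proline was replaced by alanine so that it cannot be hydroxylated, and the comparison asked which transcripts differ with that variant. Both groups therefore carried hyaluronidase injection, electroporation and an excess of Lrpprc, and no muscle without electroporation was among the libraries. The muscles of a pair were the contralateral muscles of a mouse, the CMV promoter is not specific for muscle fibres, and the age of the sequenced mice was not stated beside the RNA-seq methods.

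Intermediate filaments are built from coiled-coil proteins that assemble into flexible ropes. Keratins assemble only in pairs of a type I and a type II chain, and *Krt18* (type I) and *Krt8* (type II) form the pair that is typical of simple epithelia such as liver and gut lining. Mature muscle fibres are built around desmin, which ties neighbouring Z-discs to each other and to the membrane, nuclei and mitochondria, whereas vimentin and nestin are abundant in myoblasts and newly formed fibres, and vimentin also in fibroblasts, endothelium and leukocytes. Synemin does not form filaments on its own and co-assembles with desmin or vimentin.

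*Krt8* lies at chr15:101905133-101912917 on the minus strand and *Krt18* at chr15:101936615-101940462 on the plus strand (GRCm39, GENCODE), with start sites 23698 bases apart. The bases just upstream of both genes are shown because the pair shared a neighbourhood and a profile over the libraries. That profile includes the group difference by which both were chosen. They were taken from the RefSeq promoter table (build GRCm38.p6), each was found once on chromosome 15 of GRCm39, and only the part outside the GENCODE genes is printed, at chr15:101912918-101913027 on the minus strand for *Krt8* and chr15:101936401-101936614 on the plus strand for *Krt18*. Capitals mark matches to 2 of the motifs searched.
Krt8: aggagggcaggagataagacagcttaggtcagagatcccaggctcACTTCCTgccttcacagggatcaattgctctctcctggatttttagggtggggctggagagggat
Krt18: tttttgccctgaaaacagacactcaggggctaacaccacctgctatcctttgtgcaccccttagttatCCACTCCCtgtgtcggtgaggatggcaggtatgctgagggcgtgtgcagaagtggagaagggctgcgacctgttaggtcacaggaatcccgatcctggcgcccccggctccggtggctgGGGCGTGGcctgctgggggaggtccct

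Motifs were searched on both strands of the 250 bases before the RefSeq start of 6 of the 7 genes. AGGAAGT, the core of ETS factor sites, was found in the *Krt8* window on the opposite strand, 205 bases before the start, and in 7.70% of the 32536 distinct promoters. GGGNGTGG, of the kind bound by KLF factors, occurred 63 bases before the *Krt18* start as GGGCGTGG and, on the opposite strand, 182 bases before it as GGGAGTGG, and in 15.9% of promoters. TATAA lay 19 bases before the *Krt18* start, in the stretch not printed, and in 22.7% of promoters. Neither keratin window matched the CCAAT box (these letters), held by 33.8% of promoters, the GC box (GGGCGG), held by 33.0%, the AP-1 site (TGANTCA), held by 6.73%, the E-box of myogenic factors (CAGCTG), held by 13.1%, or the CArG box of serum response factor, held by 1.48%. GC content was 58% in the *Krt8* window and 60.4% in the *Krt18* window, against a median of 52.4% over all promoters. The keratin windows thus shared none of these motifs. Among the other genes, *Des* matched the myogenic E-box and the GC box, *Vim* the TATA, CCAAT and KLF-type letters, *Nes* the GC box and *Synm* the CCAAT box. The ETS, KLF-type and TATA letters were added after the 2 keratin sequences had been seen.

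Properties of the libraries bear on all values below. The values of every library sum to a fixed total, so the number of reads and the counting error are unknown. Genes encoded by the mitochondrial genome took 36.0% to 45.2% of the TPM with LrpprcWT and 44.2% to 46.1% with LrpprcP27A, and *Rn18s-rs5*, a ribosomal RNA-like locus, was listed at 8874 to 17614 TPM and 37023 to 44435 TPM. *Lrpprc* itself was at 35.1, 37.0 and 75.2 TPM with LrpprcWT and at 26.0 to 29.7 TPM with LrpprcP27A, a value in which plasmid and endogenous transcripts cannot be told apart. The median log2 fold change of all tested genes was -0.32, and 87.99% of them were below 0, so fold changes are also given after another scaling. With median-of-ratios scaling, which sets a typical gene to no change, the median was -0.0047. The scaling factors were 1.23, 0.974 and 1.25 for the LrpprcWT libraries of replicates 1 to 3 and 0.851 to 0.899 for the LrpprcP27A libraries, so the LrpprcWT library of replicate 2 stood apart from its group.

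In the control muscles *Krt8* was at 20.2, 14.1 and 32.0 TPM, and in the LrpprcP27A muscles at 1.33, 0.234 and 0.571 TPM. The groups were far apart, with the lowest control value 10.6 times the highest value with LrpprcP27A. The means were 22.1 ± 9.13 and 0.713 ± 0.563 TPM (SD, n = 3), a ratio of 31.0. On the log2(TPM + 1) scale, which understates the change of low values, the difference was -3.73, and -3.18, -3.61 and -4.39 in the 3 same-numbered pairs.

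*Krt18*, its partner, was at 31.2, 31.9 and 55.2 TPM with LrpprcWT and at 2.41, 0.213 and 0.955 TPM with LrpprcP27A. Again no value of one group approached the other, the lowest control value being 12.9 times the highest with LrpprcP27A. The means of 39.4 ± 13.7 and 1.19 ± 1.12 TPM (SD, n = 3) gave a ratio of 33.1. Its log2 fold change of -4.28 was below that of every other tested gene, and only 2 tested genes were below *Krt8*. Median-of-ratios scaling left differences of -3.48 for *Krt8* and -4.01 for *Krt18*, and leaving out each library in turn gave -3.43 to -4.00 and -3.92 to -4.66. Because both genes were chosen for this difference, these figures describe it and do not test it.

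The pair kept a similar proportion while its level differed. The ratio of *Krt18* to *Krt8* was 1.54, 2.27 and 1.72 with LrpprcWT and 1.81, 0.908 and 1.67 with LrpprcP27A. These ranges overlap, and the lowest ratio came from the library in which both genes were lowest, at 0.213 and 0.234 TPM. By mean TPM, *Krt18* ranked 1667th and *Krt8* 2795th of all listed genes with LrpprcWT, and 10667th and 11702nd with LrpprcP27A. In the LrpprcWT muscles the values of *Krt18* overlapped those of *Nes* (34.8 to 74.4 TPM).

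**Figure D1:**
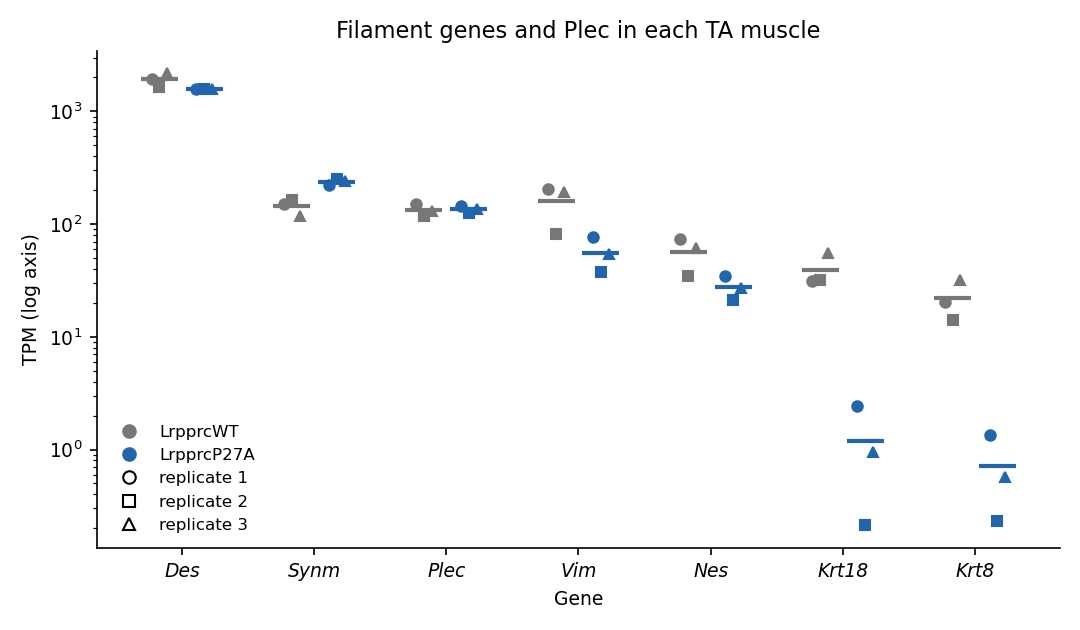
TPM (log axis) of the 7 genes in each TA muscle, with LrpprcWT in grey, LrpprcP27A in blue, a symbol per replicate number and a horizontal line at each group's mean. *Krt8* and *Krt18* are at or above 14.1 TPM in every LrpprcWT muscle and at or below 2.41 TPM in every LrpprcP27A muscle, *Vim* and *Nes* are lower by a smaller factor, *Synm* is higher, and *Des* and *Plec* lie close together.

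Other keratins did not show a difference of that size. Of the 49 keratin genes in the table, 25 were listed at 0 in all libraries and 18 more had a mean under 0.1 TPM, with no single value above 0.101 TPM. Besides *Krt8* and *Krt18*, 4 had a mean of at least 0.1 TPM. *Krt222*, a keratin-like gene, was at 2.52 to 2.82 TPM with LrpprcWT and 1.65 to 2.23 TPM with LrpprcP27A. *Krt10*, a type I keratin of differentiating epidermis, was at 2.00 TPM on average with LrpprcWT and 1.29 TPM with LrpprcP27A. *Krt80* averaged 0.570 and 0.420 TPM. *Krt19*, the type I keratin that pairs with keratin 8 at the costameres of striated muscle, was at 0.118 to 0.348 TPM with LrpprcWT and 0.0550 to 0.406 TPM with LrpprcP27A, so its groups overlapped.

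Summed over the 47 other keratins, the level was 5.94, 4.94 and 6.35 TPM with LrpprcWT and 4.14, 4.07 and 4.07 TPM with LrpprcP27A. *Krt8* and *Krt18* together summed to 51.4, 46.0 and 87.2 TPM and to 3.74, 0.447 and 1.53 TPM. They made up 89.6% to 93.2% of all keratin TPM in the control muscles and 9.91% to 47.5% with LrpprcP27A. The smaller difference of the other keratins is in the direction of the median of all genes.

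*Des*, the main filament protein of mature fibres, was the most abundant of the genes in every library. It was at 1948, 1647 and 2174 TPM with LrpprcWT and at 1591, 1574 and 1580 TPM with LrpprcP27A. Every control value was the higher, as for 47.6% of all tested genes. The means were 1923 ± 264 and 1581 ± 8.36 TPM (SD, n = 3), and the log2 fold change of -0.27 (SE 0.12) did not pass the test (adjusted p = 0.101 by limma with Benjamini-Hochberg adjustment over all tested genes). That value is 0.046 above the median of all tested genes, and with median-of-ratios scaling the direction turned, to 0.10 (adjusted p = 0.486). Without the LrpprcWT library of replicate 2 the difference was -0.38 (adjusted p = 0.0115, limma). In that setting 6913 of the 11611 tested genes were called lower.

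*Des* also held its place among the filament genes. It ranked 44th by mean TPM with LrpprcWT and 46th with LrpprcP27A, and took 80.2% to 83.5% and 82.6% to 83.6% of the summed TPM of the 6 filament genes. Its 3 LrpprcP27A values were unusually close, with an SD of 0.0076 on the log2 scale, smaller than that of all but 0.439% of the tested genes.

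*Synm*, the large partner that co-assembles with desmin, rose. It was at 151, 163 and 117 TPM with LrpprcWT and at 221, 251 and 239 TPM with LrpprcP27A, so that every LrpprcP27A muscle was above every control. The means were 144 ± 24.1 and 237 ± 14.9 TPM (SD, n = 3), with a log2 fold change of 0.73 (SE 0.14, adjusted p = 0.0167 by limma). Of all tested genes, 1.34% passed as higher, 3.51% had groups that did not overlap in that direction, and 99.4% had a lower fold change than *Synm*. The increase was 1.10 with median-of-ratios scaling (adjusted p = 0.0292), and the call was lost without the LrpprcWT library of replicate 3 (0.59, adjusted p = 0.0802) and without the filter on low values (adjusted p = 0.0618).

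A ratio within a library does not depend on how libraries are scaled. The ratio of *Synm* to *Des* was 0.0774, 0.0991 and 0.0537 with LrpprcWT and 0.139, 0.159 and 0.152 with LrpprcP27A, without overlap. The share of *Synm* in the summed filament TPM was 4.43% to 8.28% in the controls and 11.5% to 13.3% with LrpprcP27A. *Synm* moved from rank 474 to rank 235 by mean TPM.

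*Vim*, the filament protein of mesenchymal cells and myoblasts, fell. It was at 205, 81.8 and 194 TPM with LrpprcWT and at 76.2, 37.2 and 54.1 TPM with LrpprcP27A. The groups did not overlap, but the control of replicate 2 came close to the highest LrpprcP27A value. The means of 160 ± 68.4 and 55.9 ± 19.6 TPM (SD, n = 3) gave a ratio of 2.87 and a log2 fold change of -1.45 (SE 0.36, adjusted p = 0.0286 by limma). Of all tested genes 23.3% passed as lower and 47.6% had groups that did not overlap in that direction, so the call alone is common here. Only 1.42% of them had a lower fold change than *Vim*.

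*Nes*, a filament protein of progenitors and of the fibre beneath the neuromuscular and myotendinous junctions, also fell. It was at 74.4, 34.8 and 61.4 TPM with LrpprcWT and at 34.7, 21.1 and 27.1 TPM with LrpprcP27A. The groups touched, the lowest control being 1.003 times the highest LrpprcP27A value. The means of 56.8 ± 20.2 and 27.6 ± 6.78 TPM (SD, n = 3) gave a ratio of 2.06 and a log2 fold change of -0.97 (SE 0.27, adjusted p = 0.0379 by limma).

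The calls of *Vim* and *Nes* depended on the scaling and on single libraries. With median-of-ratios scaling the differences were -1.08 (adjusted p = 0.0649) and -0.61 (adjusted p = 0.106). With the replicate block, which compares same-numbered muscles, taken to be contralateral, added to that scaling, the adjusted p values from limma were 0.00518 and 0.00681. Of the 11611 tested genes, 1839 were called lower in that setting. With each of the 6 libraries left out in turn, either gene was called lower in only 2 of the fits. Without the LrpprcWT library of replicate 3 the differences were -1.26 (adjusted p = 0.132 by limma) and -0.89 (adjusted p = 0.149). Without that of replicate 2 they were -1.88 (adjusted p = 0.00368) and -1.29 (adjusted p = 0.00426). In these 2 settings 15 and 6913 of the 11611 tested genes were called lower. The ratio of *Des* to *Vim*, free of scaling, was 9.48, 20.1 and 11.2 with LrpprcWT and 20.9, 42.3 and 29.2 with LrpprcP27A, and each LrpprcP27A muscle was above its same-numbered control.

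*Plec*, the plakin that anchors desmin filaments at Z-discs, costameres and nuclei (chr15:76055174-76116774, minus strand), was at 150, 118 and 132 TPM with LrpprcWT and at 144, 125 and 136 TPM with LrpprcP27A. The groups overlapped throughout. The means were 133 ± 16.3 and 135 ± 9.49 TPM (SD, n = 3), with a log2 fold change of 0.025 (SE 0.12, adjusted p = 0.871 by limma). With median-of-ratios scaling it was 0.40 higher (adjusted p = 0.0410 by limma), a call made for 5.25% of all tested genes. It did not pass after quantile normalization (0.28, adjusted p = 0.123) or rescaled without mitochondrial and 18S genes (0.21, adjusted p = 0.220). The ratio of *Plec* to *Des* was 0.0606 to 0.0770 with LrpprcWT and 0.0794 to 0.0904 with LrpprcP27A.

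**Figure D2:**
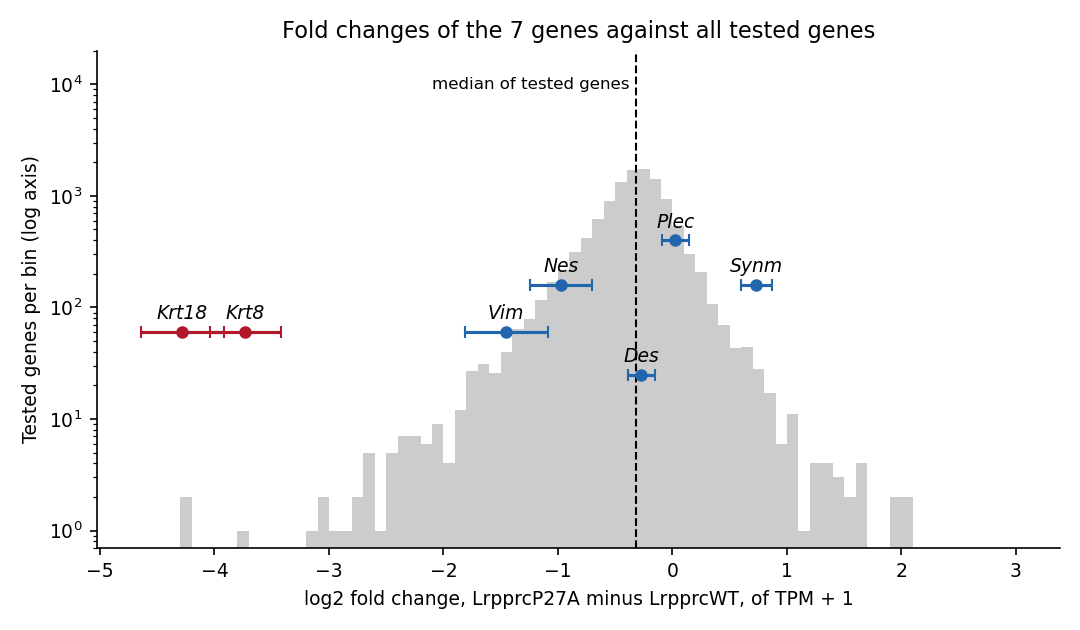
Log2 fold changes (LrpprcP27A minus LrpprcWT, of TPM + 1; horizontal bars, ± 1 SE) of the 7 genes over a histogram of all 11611 tested genes (log axis of genes per bin of width 0.1; the height of the named points has no meaning). *Krt18* and *Krt8* lie at the lower end, *Vim* and *Nes* in the lower tail, *Des* at the median of -0.32 (dashed), and *Synm* near the upper end.

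Within the LrpprcWT muscles the order of the levels was *Des*, then *Vim*, *Synm* and *Plec*, whose values overlapped, then *Nes* and *Krt18*, whose values overlapped, and *Krt8*, whose highest value reached the lowest of *Krt18*. With LrpprcP27A the order was *Des*, *Synm*, *Plec*, *Vim*, *Nes*, *Krt18* and *Krt8*. There, each of the first 5 was separated from the next in all libraries, and the keratins overlapped. The ratio of *Vim* to *Nes* was 2.35 to 3.16 with LrpprcWT and 1.76 to 2.20 with LrpprcP27A.

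**Figure D3:**
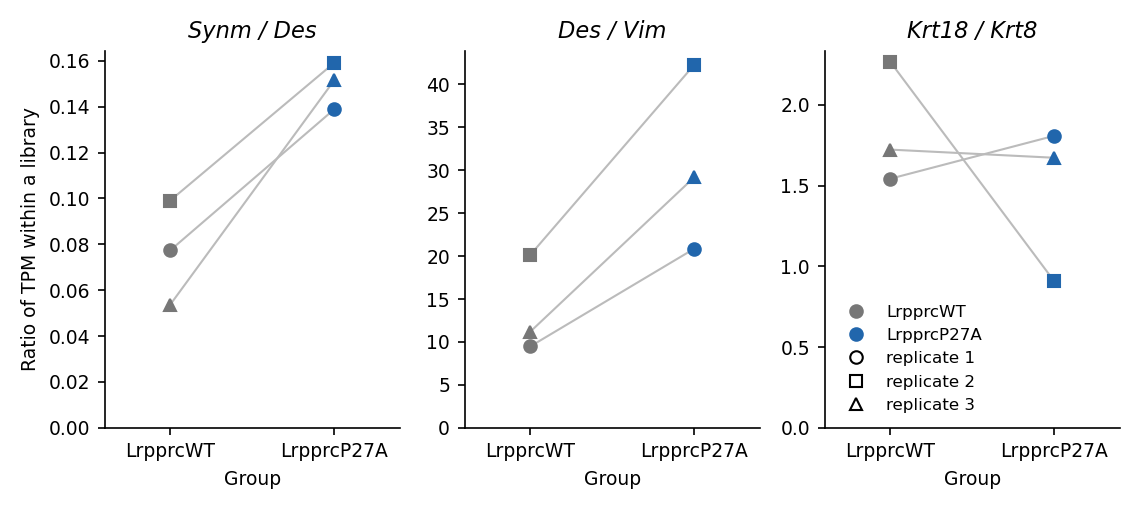
Ratios of TPM within each library, with LrpprcWT in grey, LrpprcP27A in blue, a symbol per replicate number and lines joining same-numbered muscles, taken to be contralateral. The ratios of *Synm* to *Des* and of *Des* to *Vim* are higher with LrpprcP27A in all 3 pairs, and the ratio of *Krt18* to *Krt8* overlaps between the groups.

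Genes that build or bind these filaments were taken from 4 lists, of intermediate filament genes, lamins and nuclear envelope links, plakins and desmosomal genes, and desmin partners and chaperones. Of their 45 genes other than the members, 28 were tested, 6 fell and none rose by limma (at an unadjusted p under 0.05, 13 were lower and 0 higher). The 6 make up 21.4% of the 28, near the 23.3% of all tested genes. Their median log2 fold change was -0.40, against -0.32 for all tested genes, and -0.039 with median-of-ratios scaling. With the replicate block 16 fell and none rose, or 57.1%, against 48.4% of all tested genes lower and 2.69% higher.

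Among other cytoskeletal filament genes only *Iffo1* and *Iffo2*, which encode little-studied proteins with a filament domain, passed the filter. *Iffo1* averaged 10.5 and 5.28 TPM (log2 fold change -0.87, SE 0.19, adjusted p = 0.0231 by limma), and *Iffo2* 3.80 and 1.73 TPM (-0.81, SE 0.23, adjusted p = 0.0377). The neuronal, glial and lens filament genes were at or below 0.769 TPM in every library, and *Ina* was listed at 0 in all.

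The nuclear lamina has its own filament genes, and 1 of 10 tested genes of that list fell, where 23.3% of all tested genes did. *Lmna*, which encodes lamins A and C, was at 73.5, 35.0 and 70.3 TPM with LrpprcWT and at 29.5, 20.2 and 25.2 TPM with LrpprcP27A (log2 fold change -1.16, SE 0.27, adjusted p = 0.0249 by limma). The B-type lamin genes *Lmnb1* (8.32 and 5.29 TPM) and *Lmnb2* (3.36 and 1.76 TPM) had adjusted p of 0.0667 and 0.0571. With the replicate block both passed as lower (adjusted p = 0.00671 and 0.00243 by limma), as 48.4% of all tested genes did. *Sun2* and *Syne1*, which connect the lamina to the cytoskeleton, differed by -0.094 and 0.030 on the log2 scale, with adjusted p of 0.537 and 0.889.

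Of 5 tested plakin and desmosomal genes besides *Plec*, only *Pkp2*, a plakophilin, fell, near the 23.3% of all tested genes. It went from 2.66 to 1.08 TPM (log2 fold change -0.82, SE 0.16, adjusted p = 0.0173 by limma). *Pkp2* alone among the 6 genes that fell in the 4 lists also passed with median-of-ratios scaling (-0.58, adjusted p = 0.0356), where 6.03% of all tested genes were called lower. The large plakin *Dst* was at 24.5 and 30.5 TPM (0.32, adjusted p = 0.124), and with median-of-ratios scaling it passed as higher (0.68, adjusted p = 0.0330), as 5.25% of all tested genes did. The desmosomal plakin *Dsp* was at or below 0.148 TPM in every library.

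Of 11 tested desmin partners and chaperones, 2 fell, where 23.3% of all tested genes did. *Hspb8*, a small heat shock protein that works with *Bag3* on damaged filament proteins, went from 488 ± 65.0 to 315 ± 3.94 TPM (SD, n = 3; log2 fold change -0.62, SE 0.11, adjusted p = 0.0160 by limma), and *Dtna*, which encodes alpha-dystrobrevin, a binding partner of syncoilin, also fell, at 14.5 to 19.1 TPM with LrpprcWT and 11.4 to 12.5 TPM with LrpprcP27A (-0.45, adjusted p = 0.0422). *Cryab*, the chaperone of desmin and the most abundant gene of the list, was at 551, 547 and 858 TPM with LrpprcWT and at 453, 404 and 615 TPM with LrpprcP27A, with an adjusted p of 0.155. With the replicate block it passed as lower (adjusted p = 0.00914 by limma), as 48.4% of all tested genes did. *Neb*, the nebulin gene, was at 448 and 453 TPM. With median-of-ratios scaling neither *Hspb8* (-0.25, adjusted p = 0.126) nor *Dtna* (-0.10, adjusted p = 0.433) passed.

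The 5 tested genes nearest to the keratin locus on each side were compared with it. Those beyond *Krt18* had start sites 69.2 to 201 kb from that of *Krt8*, and those on the other side lay 732 to 887 kb away. *Eif4b*, a translation factor gene and the closest of them, was at 105 and 104 TPM, a log2 fold change of -0.0069 (SE 0.10), or 0.36 with median-of-ratios scaling (adjusted p = 0.0378). *Igfbp6*, at 139.8 kb, was the only one of the 10 that fell without the replicate block, where 23.3% of all tested genes did. It went from 57.2 to 31.0 TPM (log2 fold change -0.90, SE 0.19, adjusted p = 0.0208 by limma), and did not pass with median-of-ratios scaling (-0.53, adjusted p = 0.0871). With the replicate block 6 of the 10 fell, adding *Acvrl1*, *Tamalin*, *Nr4a1*, *Spryd3* and *Csad*, against 48.4% of all tested genes. The other 8, *Acvrl1*, *Acvr1b*, *Tamalin*, *Nr4a1*, *Atg101*, *Tns2*, *Spryd3* and *Csad*, had log2 fold changes from -0.63 to -0.21. *Gm36026*, which overlaps *Krt8* in position, was listed at 0 in all libraries.

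**Figure D4:**
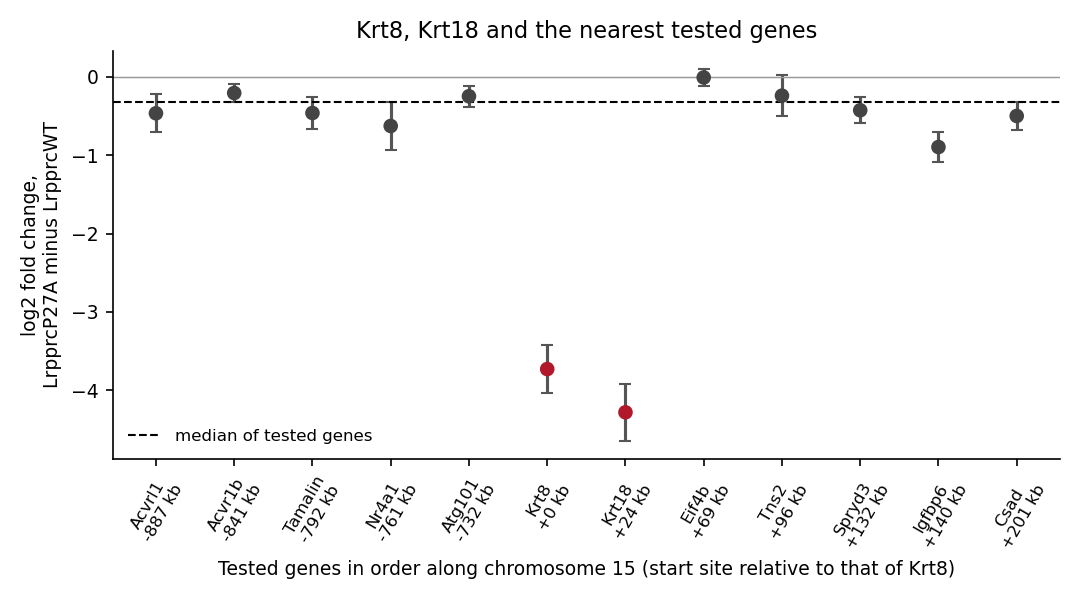
Log2 fold changes (LrpprcP27A minus LrpprcWT, ± 1 SE) of *Krt8*, *Krt18* and the 5 tested genes nearest on each side, in order along chromosome 15 with their distance from the *Krt8* start site in kb. The 2 keratins (red) stand at -3.73 and -4.28, and the neighbours lie between -0.90 and -0.0069, around the median of tested genes (dashed).

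The genes whose profile over the 6 libraries was nearest to that of the keratins were found by the root mean square difference of centred log2(TPM + 1). The profile includes the group difference by which the keratins were chosen, so genes with a similarly low fold change come nearest. *Krt8* and *Krt18* differed from each other by 0.358. The nearest other genes were *Sln* (0.385), the gene of sarcolipin, which inhibits the calcium pump of the fibre, *Rrad* (0.560), a small GTPase, *Mfap4* (0.607) and *Postn* (0.681), both of the extracellular matrix, and *Cxcl1* (0.692), a chemokine. *Sln* was at 81.0, 54.1 and 108 TPM with LrpprcWT and at 8.65, 1.70 and 1.62 TPM with LrpprcP27A. Like the keratins it was highest in the LrpprcWT muscle of replicate 3 and, among LrpprcP27A muscles, in that of replicate 1.

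The nearest profiles to *Vim* were those of *Anxa1* (0.0994), *Anxa2* (0.104) and *Tubb2b* (0.109), encoding annexins and a beta-tubulin. Those nearest to *Nes* were *Chst1* (0.0433), *Atp8b2* (0.0471) and *Col4a2* (0.0519), to *Synm* *Zfp652* (0.0391), *Osbpl6* (0.0775) and *Smtnl2* (0.0891), to *Des* *Ssna1* (0.0151), *Ndfip2* (0.0154) and *Mtch2* (0.0156), and to *Plec* *Rps6ka2* (0.0366), *Dcun1d4* (0.0379) and *Tatdn2* (0.0391). These distances describe 6 libraries that share their pairing and scaling, and small distances come more easily to genes that vary little.

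Markers of the cells that a TA muscle can hold were summed in each library, and in bulk tissue fewer cells of a type and less RNA per cell cannot be told apart. The fibres that define the tissue were present throughout. Fast fibre markers, led by *Acta1* (skeletal actin), summed to 141414 to 156345 TPM with LrpprcWT and 130835 to 147843 TPM with LrpprcP27A. By limma 1 of 9 fell, where 23.3% of all tested genes did. It was *Mylpf* (fast regulatory light chain), with a log2 fold change of -0.59 (adjusted p = 0.0168 by limma). That call was lost with median-of-ratios scaling (-0.21, adjusted p = 0.360). Of the 9 markers 4 had a fold change below 0. With the replicate block 2 fell, *Mylpf* and *Myh1* (-0.38, adjusted p = 0.0150 by limma), against 48.4% of all tested genes. *Myh4* rose with the block (0.36, adjusted p = 0.0203 by limma), as 2.69% of all tested genes did. The ratio of the group means of the sum was 0.937, and 1.21 with median-of-ratios scaling, so its direction depends on the scaling.

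Markers of simple epithelium, the usual site of keratins 8 and 18, were at or near 0. None of 15 reached the filter. *Epcam* was at or below 0.045 TPM in every library, *Cldn4* and *Cldn7* at or below 0.032 TPM, and *Cdh1* at or below 0.184 TPM. *Spint2*, a broadly expressed protease inhibitor, was the largest term of the sum in every library, at 0.893 to 1.21 TPM with LrpprcWT and 0.593 to 0.837 TPM with LrpprcP27A. *Elf3* was higher with LrpprcP27A, at 0.181 to 0.551 TPM against 0.0984 to 0.129 TPM with LrpprcWT. *Cldn3*, *Ovol1* and *Grhl2*, at or below 0.044 TPM in every library, also had higher means with LrpprcP27A. The means of the other markers were lower. The sum was 1.54 to 1.95 TPM with LrpprcWT and 1.14 to 1.65 TPM with LrpprcP27A, beside 46.0 to 87.2 TPM of *Krt8* and *Krt18* in the controls. The ratio of its group means was 0.800, and 1.04 with median-of-ratios scaling. Mesothelial cells, which also make both keratins, were represented mainly by *Msln*, at 0.696 to 1.53 TPM with LrpprcWT and 0.066 to 0.295 TPM with LrpprcP27A, while *Upk1b* and *Upk3b* were at or below 0.110 TPM and *Wt1* and *Lrrn4* were listed at 0 in all libraries. The summed mesothelial markers were 0.734 to 1.64 TPM and 0.066 to 0.295 TPM, and none of the 5 reached the filter. *Msln* was thus lower with LrpprcP27A, as the keratins were, at a level far below theirs, and its part in their difference was not tested.

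Markers of myoblasts and regenerating fibres moved with the keratins, *Vim* and *Nes*. Their sum was 167, 95.9 and 187 TPM with LrpprcWT and 48.6, 29.2 and 39.0 TPM with LrpprcP27A, and 8 of 9 fell by limma (23.3% of all tested genes did). The genes for myogenin (*Myog*, 34.4, 22.0 and 53.1 against 9.20, 3.51 and 6.16 TPM), for the fusion protein myomaker (*Mymk*, log2 fold change -2.68) and its partner myomixer (*Mymx*, -1.79), and for embryonic and neonatal myosin (*Myh3*, -2.62; *Myh8*, -2.90) were among them, with adjusted p from 0.0116 to 0.0205. *Ncam1* (-1.51), *Myf5* (-0.87) and *Pax7* (-0.60), the last 2 marking satellite cells, also fell. With median-of-ratios scaling 7 of the 8 passed, against 6.03% of all tested genes, and *Pax7* did not (-0.36, adjusted p = 0.0875). *Myod1* had 36.3 and 22.1 TPM with an adjusted p of 0.0540, and passed as lower with the replicate block (adjusted p = 0.000749 by limma), as 48.4% of all tested genes did.

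Markers of the other cells of muscle fell in part. All 7 fibroblast markers fell (*Pdgfra*, *Dcn*, *Lum*, *Col1a1*, *Col3a1*, *Dpt* and *Thy1*), against 23.3% of all tested genes. Their sums were 879 to 1476 TPM and 244 to 517 TPM, with *Col3a1* the most abundant (512 and 120 TPM). With median-of-ratios scaling 5 of the 7 passed, against 6.03% of all tested genes called lower. *Pdgfra* (-0.40, adjusted p = 0.0966) and *Dcn* (-0.32, adjusted p = 0.229) did not. All 6 tested macrophage markers fell (*Adgre1*, *Cd68*, *Csf1r*, *Mrc1*, *C1qa* and *Itgam*), again against 23.3% of all tested genes. The sums over 7 markers, led by *C1qa*, were 80.2 to 177 and 28.8 to 62.9 TPM. With median-of-ratios scaling, where 6.03% of all tested genes were called lower, only *Cd68* (-1.35, adjusted p = 0.0330) and *Mrc1* (-0.69, adjusted p = 0.0329) of the 6 passed. *Cd163*, below the filter, averaged 0.459 TPM with LrpprcWT and 1.19 TPM with LrpprcP27A. Of 7 endothelial markers *Cdh5* and *Emcn* fell, near the 23.3% of all tested genes, and all 7 did with the replicate block, against 48.4% of all tested genes, with sums of 184 to 332 and 137 to 190 TPM. Of 5 tested Schwann cell markers *Pmp22* alone fell, near the 23.3% of all tested genes. The sums over 6 markers were 54.5 to 69.6 and 31.3 to 62.2 TPM. *Cdh5*, *Emcn* and *Pmp22* did not pass with median-of-ratios scaling (adjusted p = 0.170, 0.0993 and 0.157). The ratios of the group means were 0.259 for regenerating fibre markers, 0.289 for fibroblast, 0.378 for macrophage, 0.614 for endothelial and 0.698 for Schwann cell markers, beside lower *Vim*, *Nes* and keratins. With median-of-ratios scaling the median log2 fold changes of the tested markers were -1.60 for regenerating fibres, -1.02 for fibroblasts, -0.78 for macrophages, -0.18 for endothelium and -0.0044 for Schwann cells. The part of these cells in the differences of *Krt8*, *Krt18*, *Vim* and *Nes* was not tested.

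**Figure D5:**
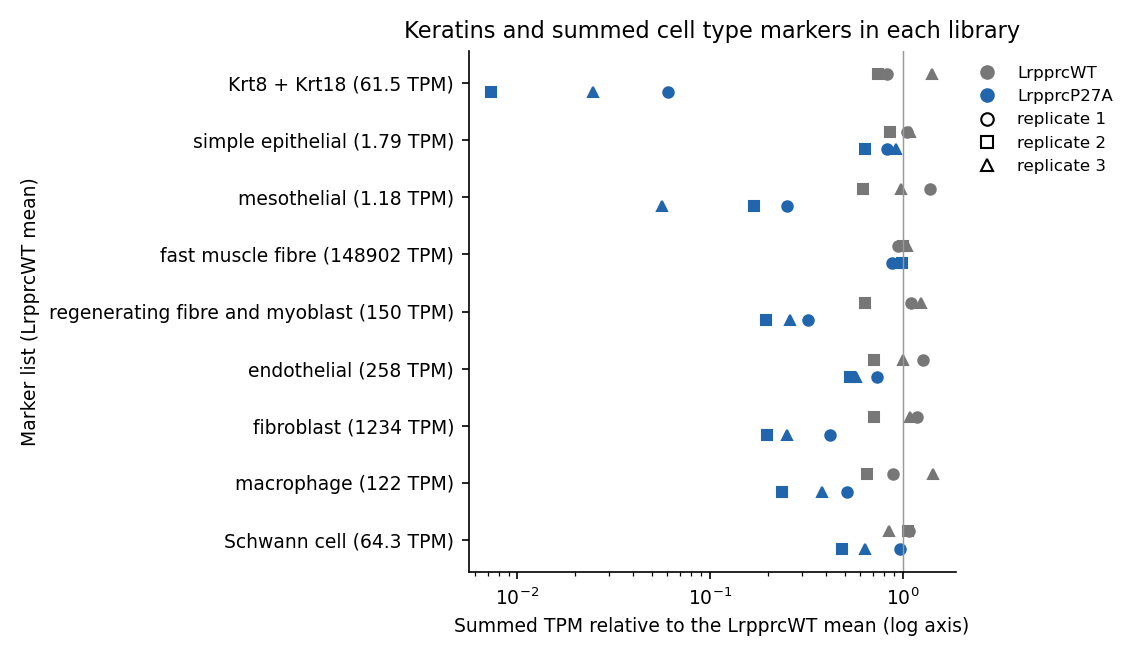
Summed TPM of *Krt8* and *Krt18* and of 8 marker lists in each library, relative to the LrpprcWT mean given beside each name (log axis), with LrpprcWT in grey, LrpprcP27A in blue and a symbol per replicate number. The keratins are lowest with LrpprcP27A relative to control, regenerating fibre, fibroblast, macrophage and mesothelial markers are also lower, and fast fibre and simple epithelial markers lie near 1.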

How the data were processed

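RNA was extracted with Trizol from TA muscles and sequenced in 6 libraries (3 LrpprcWT, 3 LrpprcP27A). The authors trimmed paired reads of 100 bp, used CLC Genomics Workbench 20.0.4 for alignment to GRCm39, and deposited TPM per gene. TPM keeps no depth, so no counting error can be given. The study gives 1 μg of RNA per library and the labels give 1 mg.

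Groups and replicate numbers came from the labels. From the deposited TPM, log2(TPM + 1) of the 11611 genes with a mean of at least 1 TPM was compared with limma 3.58.1 (trend, Benjamini-Hochberg adjustment over all tested genes, threshold 0.05) in R 4.3.3. Alternatives were a pseudocount of 0.1, other filters and scalings, no trend, the Kruskal-Wallis test named in the study's methods, run here with exact permutation p-values, the replicate block and each library left out. Deviations from the group means correlated by 0.363, 0.528 and 0.356 over genes in the 3 same-numbered pairs, and the study describes contralateral muscles, so the numbers were taken to pair the muscles.

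The members and lists were chosen with earlier results of these data known. Named genes were the members, the list genes past the threshold, most abundant or at 0 throughout, keratins with a mean of at least 0.1 TPM, the nearest profiles and the neighbours of the keratin locus. Other list genes were named after their values were seen. The fit was tested on simulated data. Positions are from GENCODE (GRCm39).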

Additional observations from a re-analysis of the deposited data

How the results depend on the processing

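*Krt8* and *Krt18* stayed lower in every alternative, from -3.34 to -4.94 and from -3.92 to -5.34 on the log2 scale, the most negative with a pseudocount of 0.1. Counts of calls moved more. Against 2705 genes lower and 156 higher, there were 42 and 9 without the filter, 700 and 610 with median-of-ratios scaling, 518 and 493 after quantile normalization, and 0 and 0 with an exact permutation form of the Kruskal-Wallis test, whose unadjusted p cannot go below 0.1. With a mean of at least 5 TPM 1560 were lower, and rescaled without mitochondrial and 18S genes 658. The replicate block, which pairs same-numbered muscles, gave 5619 and 312, and 1839 and 1561 with median-of-ratios scaling added. Leaving out a library gave 15 (without the LrpprcWT library of replicate 3) to 6913 (without that of replicate 2) lower and 3 to 304 higher.

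Of the 5 members chosen for their role, *Plec* included, 2 were called lower and 1 higher, against 23.3% and 1.34% of all tested genes. None was called lower without the filter, with the 3 other scalings without the block or with Kruskal-Wallis (0). With the replicate block 2 were, with or without median-of-ratios scaling, and 0 to 3 were with a library left out. The count higher was 0 without the filter and with Kruskal-Wallis, 2 with median-of-ratios scaling with or without the block, and 0 to 1 with a library left out. Of the 28 other genes of the filament lists, 6 lower became 1 without the filter, 1 with median-of-ratios scaling or quantile normalization, 2 rescaled, 0 with Kruskal-Wallis, 16 with the replicate block and 0 to 18 with a library left out. The 0 higher became 1 with median-of-ratios or quantile scaling and 2 with the block added to the former. *Des* turned to 0.10 with median-of-ratios scaling, with and without the block, and *Plec* ranged from -0.061 to 0.11 with a library left out. The ratios that turned were 1.04 for epithelial and 1.21 for fast fibre markers with median-of-ratios scaling. The cause was not tested. On the deposited values the block changed no call of a member. Added to median-of-ratios scaling it brought back the calls of *Vim* and *Nes*. Depth is unknown, which limits the genes under 1 TPM.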
